A study of Mus musculus with 3 samples.

Results

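The genes described here are receptors of lymphocytes for lipids, purines, nucleotide sugars and protons, or without an agreed ligand. The 9 are Gpr171, P2ry10, Gpr174, Gpr132, Gpr65, Gpr183, Gpr18, P2rx7 and P2ry14. They were chosen by name with their values in these data already known, and each is given by the probe set that lists it as its only gene. All 9 had exactly 1 such probe set, among 19518 genes measured this way. Gene expression was compared between CD4+CD8- thymocytes of 3 genotypes (PLZF lu/lu, then PLZF +/lu, and PLZF +/+ as wild type), with 1 Affymetrix array for each. The labels give all 3 as gammadelta NKT cells sorted from the thymus of female C57Bl/6 mice aged 3 to 4 weeks. According to the methods, all 3 genotypes also lacked Rag1 and carried the Vγ1Vδ6.4 T cell receptor transgenes, so that the cells carry 1 rearranged receptor and all comparisons are within this transgenic model. The luxoid allele (lu) is a point mutation of Zbtb16, the gene of the transcription factor PLZF, so its RNA can still bind the probes. According to the study, PLZF is expressed by most, but not all, cells of this gate in these transgenic mice. How many mice or cells stand behind an array is not stated.

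All of these receptors but P2rx7 belong to the class that spans the membrane in helices and signals through G proteins. P2rx7 is an ion channel that opens when ATP binds outside the cell. Such receptors let a lymphocyte sense lipids, nucleotides and acidity in the tissue around it, and several of them guide cells to their places within lymphoid organs.

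Each comparison sets 1 sample against 1 sample, without replicates and without a test, and differences are read against a rule of size of 2-fold, with 1.5-fold beside it. Values are probe set intensities on a linear scale, and differences are log2 values of PLZF lu/lu minus PLZF +/+ unless another pair is named. A brightness of 108, below which 95% of the values of 1033 olfactory receptor probe sets lie, is used as the background level. Intensities of different genes come from different probes and are not compared with each other. Zbtb16 itself was at 2890 in PLZF lu/lu, 6143 in PLZF +/lu and 8796 in PLZF +/+ cells. In a bulk sample, fewer cells that express a gene and less RNA per cell cannot be told apart. All 9 measured T cell markers were above background on each array and within 1.5-fold between PLZF lu/lu and PLZF +/+. Of markers of other cells, the B cell genes Cd79a and Ms4a1, the macrophage genes Lyz2, Csf1r, Cd14 and Adgre1 and the dendritic cell genes H2-Aa, H2-Ab1, Itgax and Flt3 were below background on every array. The summed intensity of the measured B cell list (2 of 5 genes above background) was 1626 in PLZF lu/lu, 1661 in PLZF +/lu and 1878 in PLZF +/+ cells. Most of this sum was Cd79b, at 1406 in PLZF lu/lu, 1440 in PLZF +/lu and 1658 in PLZF +/+ cells. Pax5, also counted above background, lay at that level on each array. The macrophage list, with 1 of 5 above background (Itgam), summed to 363 to 388 over the arrays. The dendritic cell list, with 2 of 7 (Siglech and Cd74), summed to 672 to 673. The erythroid list, with 2 of 4 (Epor and Slc4a1), summed to 456 to 474. The NK cell list, with 4 of 6 above background and Ncr1 and Klrb1c below it, summed to 11982 in PLZF lu/lu, 11653 in PLZF +/lu and 11952 in PLZF +/+ cells. Most of this sum was Nkg7, at 11139 in PLZF lu/lu and PLZF +/+ and 10840 in PLZF +/lu cells. Prf1, Gzma and Klrd1 were the others above background. The thymic epithelium list, with 3 of 6 above background, summed to 1702 in PLZF lu/lu, 1467 in PLZF +/lu and 1312 in PLZF +/+ cells. Its shift came through Ly75 (1.51-fold higher in PLZF lu/lu). Foxn1, at 113 on each array, lay just above background, and Krt8 was at 173 in PLZF lu/lu and 185 in both other genotypes. Epcam, Psmb11 and Krt5 were below background. The 7 measured markers of CD4+CD8+ thymocytes had a summed intensity of 5317 in PLZF lu/lu, 4418 in PLZF +/lu and 3319 in PLZF +/+ cells. Most of this shift came from Cd8b1, at 2958 in PLZF lu/lu and 1290 in PLZF +/+ cells. Of these 7, 2 were past 1.5-fold, both higher in PLZF lu/lu (Cd8b1, 2.29-fold, and Cd8a, 1.63-fold). To any degree 4 were higher in PLZF lu/lu than in PLZF +/+, 0 lower and 3 equal. The 4 include Dntt (1.30-fold) and Rag1 (1.22-fold), with PLZF +/lu the lowest for both. Ptcra and Cd1d1 were equal on all 3 arrays, and Rag2 was below background on every array. Rag1 is counted among the 7 although, according to the methods, these mice lacked it. The part of these shifts in the results that follow was not tested.

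Of the 9 receptor genes, 1 was more than 2-fold higher in PLZF lu/lu than in PLZF +/+ cells, against 0.159% of all genes measured, and none was more than 2-fold lower, against 0.272% of all genes. Past 1.5-fold there were 4, all higher in PLZF lu/lu, where 0.579% of all genes were higher and 0.856% lower by that much. All 9 had their brightest array above background. Among the 11973 such genes, 0.251% were higher by more than 2-fold and 0.902% by more than 1.5-fold. The 4 are Gpr171, P2ry10, Gpr174 and Gpr132. The remaining 5 differed by at most 1.22-fold. To any degree, 8 were higher and 1 lower in PLZF lu/lu, beside 16.9% of all genes higher and 24.9% lower. The 8 include Gpr65, P2rx7 and Gpr18, each higher by at most 1.04-fold, and genes with equal values count in neither share. The median log2 difference of the 9 was 0.28, beside 0.00 for all 19518 genes. These counts describe genes picked with this contrast in view and are no test of it. Exactly equal values are common in the deposited table, with 58.1% of the genes equal in PLZF lu/lu and PLZF +/+ cells, and none of the 9 was equal in this pair.

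**Figure D1:**
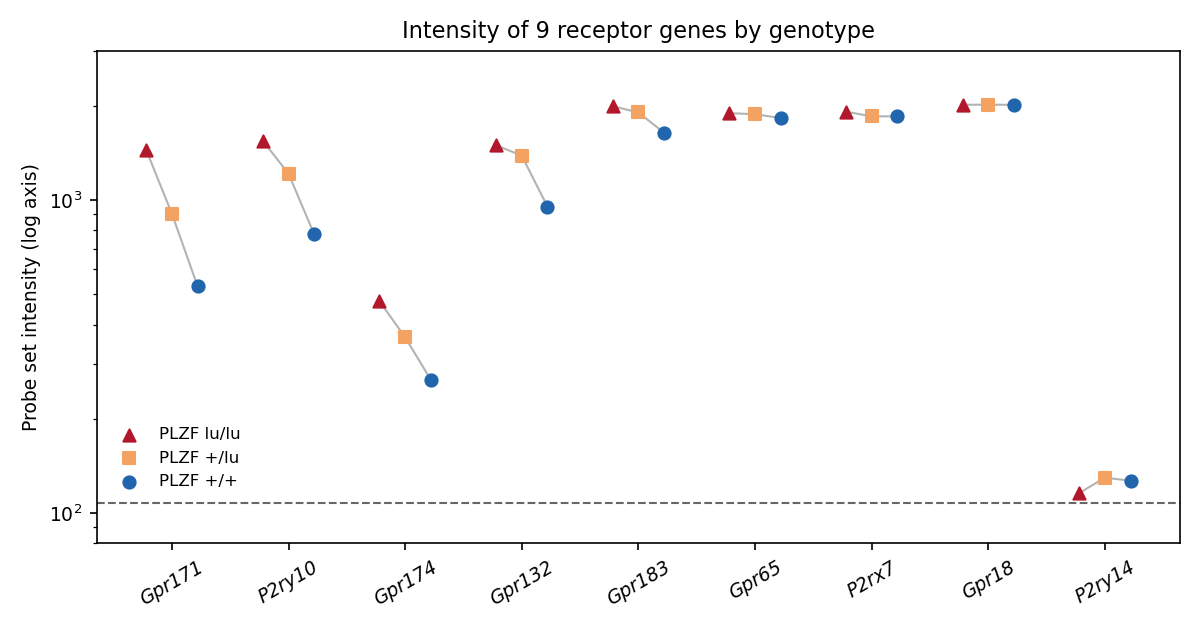
Probe set intensity (log axis) of the 9 receptor genes, each point being a single array; triangles are PLZF lu/lu, squares PLZF +/lu and circles PLZF +/+, and the dashed line is the background level of 108. From Gpr171 to Gpr132 the symbols step down from PLZF lu/lu to PLZF +/+, whereas Gpr65, P2rx7 and Gpr18 are nearly level and P2ry14 lies just above the line.

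Gpr171, a receptor related to the P2Y nucleotide receptors, showed the largest difference of the 9. It has been reported to respond to the neuropeptide BigLEN in mouse brain, and its ligand in T cells is not settled. Its intensity was 1445 in PLZF lu/lu, 904 in PLZF +/lu and 531 in PLZF +/+ cells. The array of the homozygous mutant was thus the brightest and that of the wild type the dimmest. The difference between PLZF lu/lu and PLZF +/+ was 2.72-fold, or 1.44 on the log2 scale, which ranked 10 of 19518 genes counted from the highest in PLZF lu/lu. PLZF +/lu was 1.70-fold above PLZF +/+ and PLZF lu/lu 1.60-fold above PLZF +/lu, so that the heterozygote lay at 0.53 of the log2 distance from PLZF +/+ (0) to PLZF lu/lu (1).

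**Figure D2:**
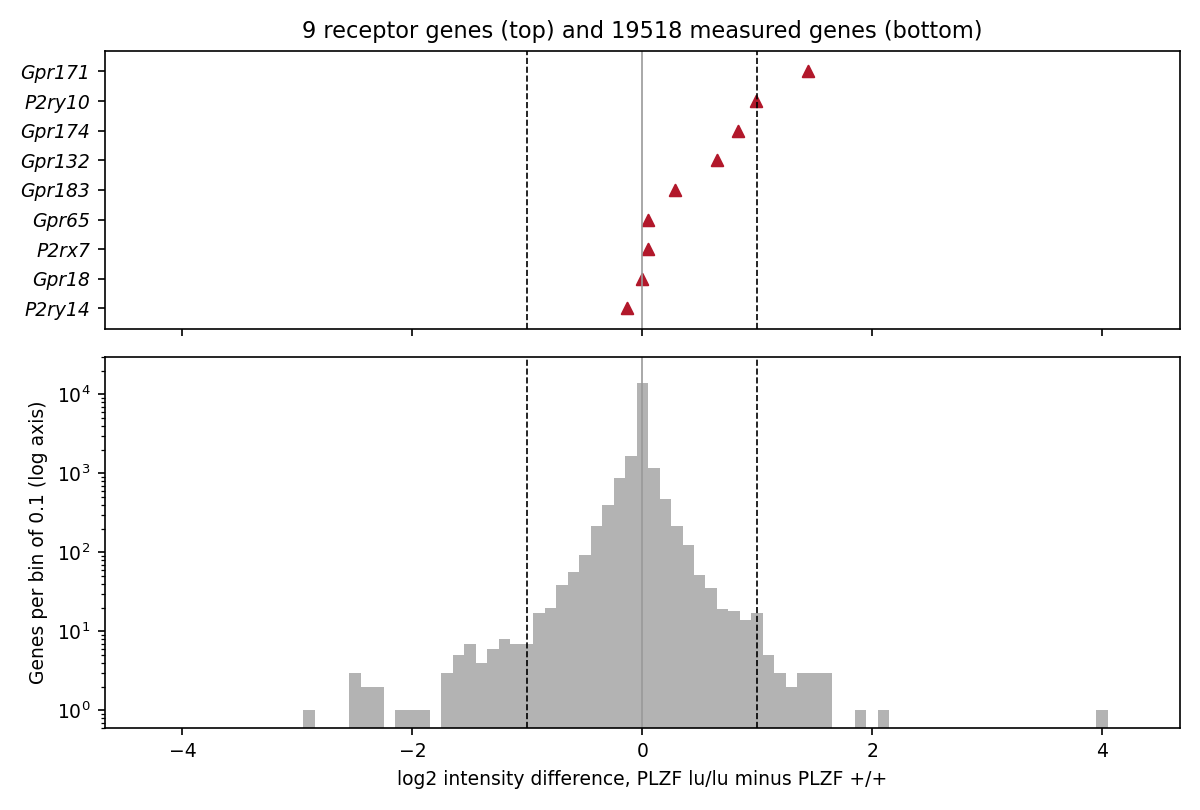
Top, log2 intensity difference (PLZF lu/lu minus PLZF +/+) of each of the 9 receptor genes; bottom, number of genes (log axis) per bin of 0.1 for all 19518 measured genes, with dashed lines at 2-fold. Gpr171 lies beyond the upper line at 1.44 and P2ry10 at it, with 0.99.

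P2ry10 and Gpr174 are receptors for lysophosphatidylserine, a lipid that forms when a fatty acid is cut from the membrane lipid phosphatidylserine. Both lie on the X chromosome. P2ry10 was at 1545 in PLZF lu/lu, 1214 in PLZF +/lu and 778 in PLZF +/+ cells. This was a 1.99-fold difference between the homozygous genotypes (0.99 on the log2 scale, rank 33 of 19518), directly under the 2-fold rule. Quantile normalization of the arrays put it past that rule, at 1.03. Gpr174, which in mice restrains regulatory T cells, was at 475 in PLZF lu/lu, 364 in PLZF +/lu and 267 in PLZF +/+ cells. It was 1.78-fold higher in PLZF lu/lu than in PLZF +/+ cells (0.83 on the log2 scale, rank 55). For both genes the heterozygote lay between the homozygous genotypes, at 0.65 of the log2 distance from PLZF +/+ for P2ry10 and at 0.54 for Gpr174. Gpr34, another receptor of this ligand, was at 59.5 on all 3 arrays, below background.

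Gpr132 responds to lysophospholipids and oxidised fatty acids and is related in sequence to the proton-sensing receptors. It was at 1497 in PLZF lu/lu, 1386 in PLZF +/lu and 953 in PLZF +/+ cells. The difference between the homozygous genotypes was 1.57-fold (0.65 on the log2 scale, rank 90). Here the heterozygote stood close to the homozygous mutant, at 0.83 of the log2 distance, with a 1.45-fold difference from PLZF +/+ and a 1.08-fold difference between PLZF lu/lu and PLZF +/lu. Gpr65, also called TDAG8, is a proton sensor that was found as a gene induced when thymocytes die after activation. It was at 1895 in PLZF lu/lu, 1882 in PLZF +/lu and 1828 in PLZF +/+ cells, a difference of 1.04-fold. Gpr4, another proton sensor, was below background, at 64.7 on each array.

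The sequence before the start site is shown for the receptors past 1.5-fold that have an entry in the RefSeq promoter table, since these 3 were higher in the same genotype. Of the 9 genes, 8 had an entry, and Gpr171 was not among them. Each line gives the 250 bases before an annotated start site, 5′ to 3′ on the strand of the gene, in build GRCm38.p6, and P2ry10 has 2 annotated start sites. Capitals mark matches, on either strand, to 5 motifs of factors of the T lineage: GGAAGT for ETS factors, TGTGGT for RUNX factors, CTTTGA for TCF-1 and LEF-1, AGATAA for GATA factors and CAGCTG for E proteins. No motif contains another.
P2ry10, first start site (chrX:107088242-107088491, + strand): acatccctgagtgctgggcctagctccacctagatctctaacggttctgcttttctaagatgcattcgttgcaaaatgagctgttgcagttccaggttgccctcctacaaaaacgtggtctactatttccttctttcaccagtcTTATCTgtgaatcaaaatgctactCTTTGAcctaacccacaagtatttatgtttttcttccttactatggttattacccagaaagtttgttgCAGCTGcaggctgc
P2ry10, further start site (chrX:107089083-107089332, + strand): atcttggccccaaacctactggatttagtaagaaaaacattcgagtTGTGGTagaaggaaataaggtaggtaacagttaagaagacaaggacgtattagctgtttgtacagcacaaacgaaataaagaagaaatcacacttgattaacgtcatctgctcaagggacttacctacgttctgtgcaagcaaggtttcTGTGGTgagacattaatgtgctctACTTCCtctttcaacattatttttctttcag
Gpr174 (chrX:107284096-107284345, + strand): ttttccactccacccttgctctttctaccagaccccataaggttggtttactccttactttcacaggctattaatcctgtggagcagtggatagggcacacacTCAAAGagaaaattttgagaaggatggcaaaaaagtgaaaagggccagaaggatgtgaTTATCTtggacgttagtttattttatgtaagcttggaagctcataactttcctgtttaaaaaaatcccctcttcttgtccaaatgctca
Gpr132 (chr12:112860917-112861166, - strand): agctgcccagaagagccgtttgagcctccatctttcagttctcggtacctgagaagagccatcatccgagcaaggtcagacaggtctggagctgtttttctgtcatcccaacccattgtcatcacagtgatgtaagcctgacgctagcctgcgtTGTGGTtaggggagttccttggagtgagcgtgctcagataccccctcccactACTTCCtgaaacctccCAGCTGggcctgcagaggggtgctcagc
The windows held 3 matches each, except that of Gpr174 with 2. TGTGGT was matched 2 times before the further start site of P2ry10 and 1 time before Gpr132, and in 14% of all 32851 windows of this table. GGAAGT was matched 1 time in each of the same windows, 31 and 44 bases before the start, and in 19.7% of all windows. CTTTGA and AGATAA were each matched 1 time before the first start site of P2ry10 and 1 time before Gpr174, where 13.8% and 9.99% of all windows hold them. CAGCTG was matched 1 time before the first start site of P2ry10 and 1 time before Gpr132, beside 13% of all windows. Such matches describe the letters only. Among the receptors that differed less, the window of Gpr65 held 1 match, that of Gpr183 held 1 and that of Gpr18 held 2. The 4 windows of P2ry14 held 2, 1, 1 and 1 matches, and those of P2rx7 held 0 and 2. Total matches were not counted over all 32851 windows, so no excess in the receptors past 1.5-fold can be read from these counts.

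Gpr183, also called EBI2, binds oxysterols and positions B cells, T cells and dendritic cells in lymphoid tissue. It was at 1994 in PLZF lu/lu, 1905 in PLZF +/lu and 1641 in PLZF +/+ cells, a difference of 1.22-fold (0.28 on the log2 scale). The genotypes stood as for Gpr171, closer together. Of the enzymes that make or remove its ligand, Ch25h and Cyp7b1 were below background on all arrays, and Hsd3b7 was at 170 on each. Gpr18, for which several lipid ligands have been proposed without agreement, is expressed in lymphocytes and in mice supports T cells of the gut epithelium. It was at 2017 in PLZF lu/lu and at 2016 in both other genotypes, a log2 difference of 0.00. Gpr183 and Gpr18 lie near each other on chromosome 14, with 1 annotated gene between them.

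The remaining receptors of the set, P2rx7 and P2ry14, showed no difference near 1.5-fold. P2rx7, the ATP-gated channel through which extracellular ATP, or NAD by way of ADP-ribosylation in mice, can kill T cells, was at 1917 in PLZF lu/lu, 1850 in PLZF +/lu and 1853 in PLZF +/+ cells. The 3 arrays were close, with PLZF lu/lu 1.03-fold above PLZF +/+ and PLZF +/lu the lowest. P2ry14, a receptor for UDP-glucose, was at 116 in PLZF lu/lu, 130 in PLZF +/lu and 127 in PLZF +/+ cells, just above the background level of 108. It was the only one of the 9 that was lower in PLZF lu/lu, by 1.09-fold, and so dim a probe set gives little room to see a decrease.

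Among the 9, 6 stood in the strict order PLZF lu/lu above PLZF +/lu above PLZF +/+ (Gpr171, P2ry10, Gpr174, Gpr132, Gpr183 and Gpr65), beside 4.41% of all genes, and none in the reverse order, beside 6.99%. Of genes whose brightest array was above background, 6.33% stood in the first order. Genes with equal values cannot stand in either order, and 58.1% of all genes were equal in PLZF lu/lu and PLZF +/+ cells. According to the study, heterozygous cells were intermediate for most genes that changed without PLZF, so the order is not particular to these receptors. The steps differ in size. Between PLZF +/lu and PLZF +/+, 2 of the 9 were past 1.5-fold, both higher in PLZF +/lu (Gpr171 and P2ry10), beside 0.251% of all genes. Between PLZF lu/lu and PLZF +/lu, 1 was past 1.5-fold (Gpr171, higher in PLZF lu/lu), beside 0.236% of all genes. No receptor was past 2-fold in either of these pairs, beside 0.133% of all genes between PLZF +/lu and PLZF +/+ and 0.123% between PLZF lu/lu and PLZF +/lu, and none was lower by 1.5-fold, beside 0.543% and 0.297% in the same pairs. The 3 comparisons share their arrays and are not separate evidence.

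Several of the receptors lie next to each other or to related genes, so the measured genes around them were set side by side. The order of genes is that of the GRCm38.p6 RefSeq table. On the X chromosome P2ry10 and Gpr174 flank P2ry10b, a gene closely related to P2ry10. P2ry10b was at 780 in PLZF lu/lu, 549 in PLZF +/lu and 597 in PLZF +/+ cells, 1.31-fold higher in PLZF lu/lu, with the heterozygote lowest. Whether probes of P2ry10 and P2ry10b also bind the other RNA was not tested. Itm2a, a membrane protein gene of developing T cells and the next measured gene beyond Gpr174, was at 1350 in PLZF lu/lu, 884 in PLZF +/lu and 788 in PLZF +/+ cells. It was 1.71-fold higher in PLZF lu/lu, with the heterozygote closer to PLZF +/+. On the other side of P2ry10, the lysophosphatidic acid receptor gene Lpar4 was below background. In this stretch the 4 genes above background were all brightest in PLZF lu/lu cells.

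On chromosome 3 the picture was different. Gpr171 lies within the Med12l locus beside P2ry14, P2ry13 and P2ry12, receptors for nucleotides and nucleotide sugars. Med12l, which encodes a subunit of a transcription coregulator, was at 206 in PLZF lu/lu and PLZF +/lu and at 200 in PLZF +/+ cells. P2ry13 and P2ry12 were below background on each array. Gpr171 was thus the single measured gene of this stretch past 1.5-fold. On chromosome 14 Ubac2, next to Gpr18, was at 2671 on all 3 arrays. Tm9sf2, which lies beyond Gpr183, was at 2321 in PLZF lu/lu, 2050 in PLZF +/lu and 1863 in PLZF +/+ cells, a 1.25-fold difference. The measured neighbours of Gpr132 (Cdca4, Clba1, Jag2 and Nudt14) had equal values in PLZF lu/lu and PLZF +/+ cells. P2rx4, the ATP-gated channel gene beside P2rx7, was at 487 in PLZF lu/lu and at 483 in both PLZF +/lu and PLZF +/+ cells.

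**Figure D3:**
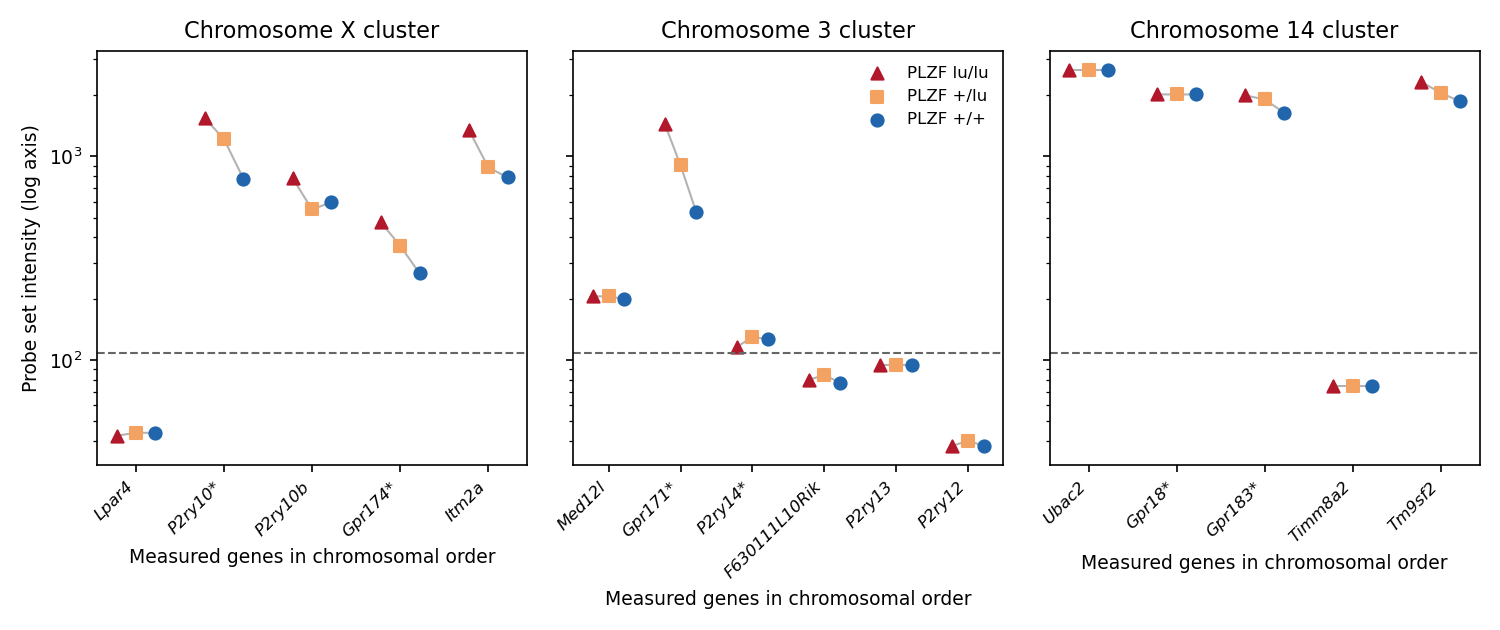
Probe set intensity (log axis) of the measured genes in chromosomal order around the receptors on chromosomes X, 3 and 14, with stars on the genes described here; triangles are PLZF lu/lu, squares PLZF +/lu and circles PLZF +/+, with 1 array each, and the dashed line is the background level of 108. On chromosome X all genes above background are brightest in PLZF lu/lu, while on chromosome 3 Gpr171 does so beside level or dim neighbours.

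Other receptors and enzymes that handle the same kinds of ligand were counted by the same rules of size. By the 1.5-fold rule, 280 of all 19518 genes differed between PLZF lu/lu and PLZF +/+ cells, in either direction. The lists are short, and whether their shares differ from that of all genes was not tested. Of 17 listed further P2 and adenosine receptors 13 were measured, all of them P2 receptors, and the adenosine receptor genes were not analysed here. None of the 13 was past 2-fold, and 8 of them were at or below background. P2ry1, an ADP receptor, was past 1.5-fold and lower in PLZF lu/lu, at 146 in PLZF lu/lu, 160 in PLZF +/lu and 221 in PLZF +/+ cells. Of 17 measured genes for extracellular nucleotides, none was past 1.5-fold. The nearest were Adk, which phosphorylates adenosine, at 2905 in PLZF lu/lu and 1967 in PLZF +/+ cells, and Slc17a9, which loads nucleotides into vesicles, at 1024 in PLZF lu/lu and 698 in PLZF +/+ cells. Nt5e, the ectoenzyme CD73 that makes adenosine, was at 3023 in PLZF lu/lu and 3974 in PLZF +/+ cells. Adk and Slc17a9 were thus brighter, and Nt5e dimmer, in PLZF lu/lu cells, each by less than 1.5-fold.

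The 34 measured receptors for lipid mediators included 19 at or below background. S1pr1, the sphingosine phosphate receptor that lets thymocytes leave the thymus, was the member past 1.5-fold. It was at 8144 in PLZF lu/lu, 6722 in PLZF +/lu and 5243 in PLZF +/+ cells, 1.55-fold higher in PLZF lu/lu. Of 24 measured orphan and adhesion receptors, Gpr155 was past 1.5-fold. Its intensity was 786 in PLZF lu/lu, 957 in PLZF +/lu and 1376 in PLZF +/+ cells, so that it was 1.75-fold lower in PLZF lu/lu. None of the 10 genes for ligand synthesis and breakdown was past 1.5-fold, and Pcsk1n, the precursor of BigLEN, was at 306 on all 3 arrays. The median log2 difference was 0.00 in each of these lists and over all genes.

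Genes that carry the signal from such receptors were listed as well. Of 43 measured genes of G protein signalling, 41 were within 1.5-fold, and none was past 2-fold. Over all genes, 0.579% were higher and 0.856% lower by more than 1.5-fold, and 0.159% and 0.272% by more than 2-fold. Rgs1, which shortens signals of Gi and Gq proteins and so dampens receptor responses, was at 1305 in PLZF lu/lu, 1127 in PLZF +/lu and 678 in PLZF +/+ cells, 1.93-fold higher in PLZF lu/lu. Gnaq, the alpha subunit of Gq, was at 196 in PLZF lu/lu, 246 in PLZF +/lu and 385 in PLZF +/+ cells, 1.97-fold lower in PLZF lu/lu. The alpha subunit genes Gnai2 and Gna13 had equal values on all 3 arrays, at 7838 and 3258. The list had 10 genes higher in PLZF lu/lu to any degree, 17 lower and 16 equal, with a median of 0.00. Of all genes, 16.9% were higher, 24.9% lower and 58.1% equal.

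**Figure D4:**
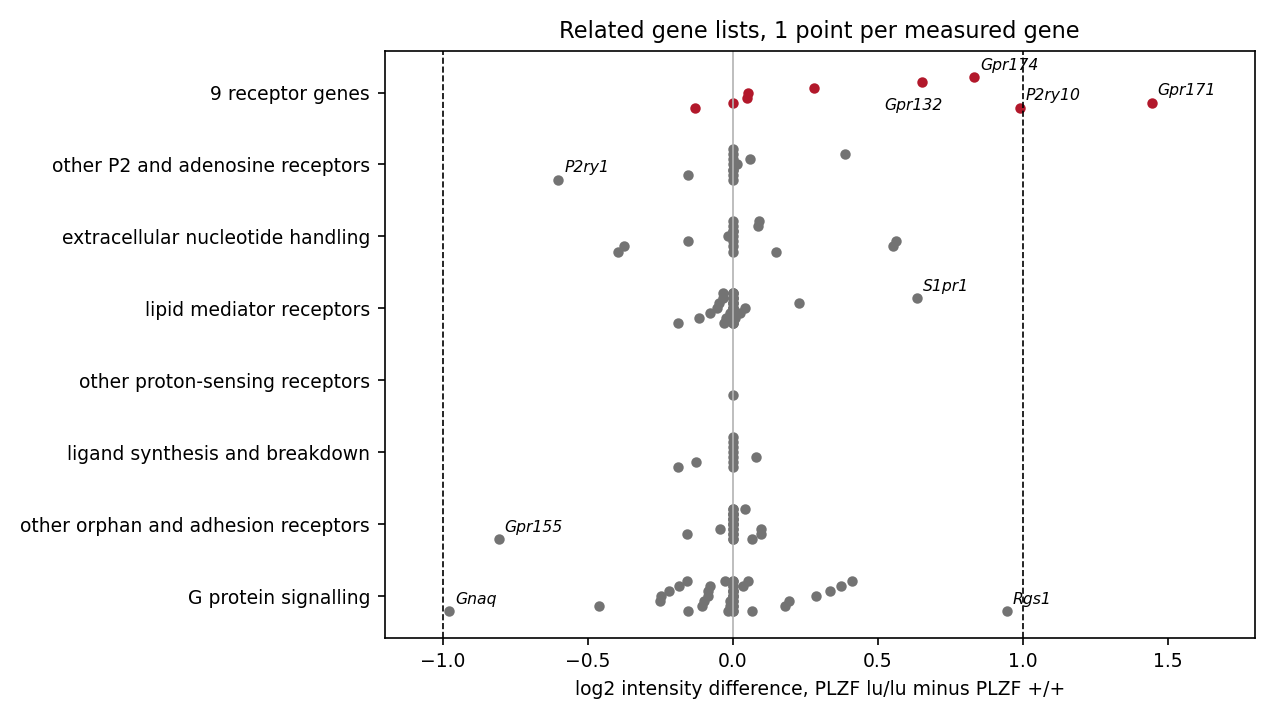
Log2 intensity difference (PLZF lu/lu minus PLZF +/+) of each measured gene in the 9 receptor genes (top, red) and 7 related lists (grey), with names for genes past 1.5-fold and dashed lines at 2-fold. Most grey points sit at or near 0; Gnaq, Gpr155 and P2ry1 lie to the left, and Rgs1 and S1pr1 to the right.

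The genes nearest in pattern to each receptor past 1.5-fold were found by the distance over 2 log2 differences, PLZF lu/lu minus PLZF +/+ and PLZF +/lu minus PLZF +/+, among 11408 named genes above background. Only 3 arrays enter this distance, so nearness is a description. For Gpr171 they were Bach2, Tsc22d3, Fgl2, Stat4 and Atxn1, at distances of 0.07 to 0.18. Bach2, which encodes a repressor of effector genes, was at 1231 in PLZF lu/lu, 801 in PLZF +/lu and 449 in PLZF +/+ cells. For P2ry10 they were Smc4, Ift80, Man1c1, Klf3 and Lrrn4, at 0.02 to 0.07. Smc4, a condensin subunit, was at 6535 in PLZF lu/lu, 5057 in PLZF +/lu and 3254 in PLZF +/+ cells. For Gpr174 they were Ifi203, Ggact, Gimap3, Btbd11 and Neurl3, at 0.0065 to 0.063. For Gpr132 they were Airn, Cd8a, Pdcd4, Ifi208 and Patj, at 0.064 to 0.12. No receptor of the set was among the 5 nearest of another.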

How the data were processed

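CD4+CD8- thymocyte RNA of the 3 genotypes was hybridised to Affymetrix Mouse Gene ST arrays, 1 each, and precision is limited by this number. The authors used GenePattern and deposited a table of probe set intensity values, linear in scale, for 24800 probe sets. The build named in the submitters' processing notes is mm8. The sources used here do not give the background correction or the summary of probes. Some 45.1% of the deposited probe sets have 1 value shared by all 3 arrays (log2 values within 1e-06). Array medians were 159.7 in PLZF lu/lu, 161.8 in PLZF +/lu and 160.0 in PLZF +/+, so no further scaling was done.

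Genes were assigned from the platform annotation, and symbols were brought to those of RefSeq for GRCm38.p6. Of the probe sets, 21065 list a single gene, 1187 list several and 2548 list none. For a gene with several, the brightest probe set (by mean log2 intensity) was kept. Because the builds differ, only promoter windows carry coordinates.

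With 1 array per genotype no test was run. The receptors and gene lists were chosen with earlier results of these data known. Named genes are the 9 receptors, list genes past 1.5-fold and brighter than the background level (at most 4 per list), neighbours that are receptors or past 1.5-fold, and the 5 nearest genes of each receptor past 1.5-fold. Other genes named for context (Adk, Slc17a9, Nt5e, Gpr34, Gpr4, ligand enzymes, G protein subunits, other neighbours and markers) and the motifs were chosen after values were seen. Nearest genes leave out gene models without a usual symbol and antigen receptor segments. The fold count was tested on simulated data. That test checks the counting only, since its noise was set in advance and the noise of these arrays is not known. Alternatives were other scalings, 32 added to each intensity, leaving out dim genes, averaging probe sets, a reference that averages both PLZF +/+ and PLZF +/lu, and thresholds of 1.5-fold and 3-fold. The software was Python 3.11.15 (numpy 2.4.6, pandas 2.3.3, matplotlib 3.10.9) and limma 3.58.1 in R 4.3.3.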

Additional observations from a re-analysis of the deposited data

How the results depend on the processing

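Gpr171 was past 2-fold under the 5 alternatives that can move a receptor's value (3 scalings, 32 added, another reference), with log2 differences from 1.06 to 1.48. Averaging probe sets and leaving out dim genes cannot move these values, since each receptor has 1 probe set and it is above background. P2ry10 ranged from 0.67 to 1.03 and passed 2-fold with quantile normalization, which gave 2 receptors past 2-fold in place of 1. Over all 19518 genes that scaling gave 83 in place of 84. Gpr174 ranged from 0.61 to 0.86 and Gpr132 from 0.38 to 0.68, and none of the 9 changed its direction. The lowest of these values come from the mean of PLZF +/+ and PLZF +/lu as reference, which has to shrink a difference where PLZF +/lu lies between; it brought the median of the 9 to 0.17 from 0.28 and the count over all genes to 41 from 84. With a threshold of 1.5-fold, 4 receptors passed between PLZF lu/lu and PLZF +/+, 2 between PLZF +/lu and PLZF +/+ and 1 between PLZF lu/lu and PLZF +/lu, where 2-fold gave 1, 0 and 0. With 3-fold none passed (0), where 24 of all 19518 genes did, so that 0 of 9 is no result about the receptors. Over all genes 280 passed 1.5-fold between PLZF lu/lu and PLZF +/+, in place of 84 at 2-fold. The lists of further P2 receptors (adenosine receptors were not analysed here), lipid mediator receptors and orphan and adhesion receptors each had 1 gene past 1.5-fold and G protein signalling had 2, where 2-fold gave 0. The alternatives for the pairs with PLZF +/lu were chosen after seeing the data. No paired analysis was possible because each genotype has 1 array. P2ry14 and many list genes lie near background, where a decrease cannot be seen.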
